A study of Mus musculus with 4 samples.

Results

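The 39 genes described here encode proteins of the nucleolus that transcribe ribosomal RNA, modify and cut it, and assemble it with ribosomal proteins into ribosomal subunits. They were chosen by symbol in a table of 24537 genes, and all 39 had a mean of at least 1 FPKM (a level scaled to exon length and to the total tags of the library) over the 4 libraries, as did 9810 genes in all. RNA was sequenced from CD8+ T cells of B16-GP33 tumours in mice at day 21 after the tumour was implanted. B16 cells are a melanoma line of the mouse, and GP33 names a viral epitope seen by CD8+ T cells. The groups were ACSS2NLS, with 2 libraries, and EV, the control, with 2 libraries. The enzyme ACSS2 turns acetate into acetyl-CoA, and NLS usually stands for a nuclear localisation signal. Both groups shared the tumour model, the day and the cell type label. How ACSS2NLS was brought into the cells, which promoter drives it and whether animals were pooled are not given in the sources used here. No group had ACSS2 without NLS.

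Ribosome production begins in the nucleolus, where RNA polymerase I makes a long precursor of ribosomal RNA. Small nucleolar RNAs (snoRNAs), in particles with proteins, guide its chemical modification: box C/D particles methylate ribose and box H/ACA particles turn uridine into pseudouridine. The small subunit (SSU) processome forms on the precursor and leads to the small, 40S subunit, while a separate chain of assembly factors builds the large, 60S subunit. T cells that are activated enlarge their nucleoli and raise these genes, many of which are known targets of the transcription factor MYC.

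Because many of these genes are known to share promoter elements, the RefSeq promoters of build GRCm38.p6 (the build also called mm10) were read for 34 of the 39 genes, from 250 bases before the annotated start to 50 bases from it on. Bop1, Fbl, Gnl2, Npm1 and Rrp12 had no match. Of the 34 genes, 8 held CACGTG, the E-box that MYC binds, in at least 1 annotated promoter (23.5%), against 12.3% of the 7496 tested genes with a promoter and 8.09% of all 27025 genes in the RefSeq table. These were Ltv1, Mybbp1a, Nop2, Pes1, Pno1, Tsr1, Utp20 and Wdr43. The ETS-type motif CCGGAA, searched on both strands, was present in 17 (50%), against 35.6% of tested genes and 16.7% of all genes. No match of CACGTG overlapped one of CCGGAA, and 3 genes held both. The 38 promoters listed for these 34 genes had a median of 59.5% G and C, close to the 60.7% of the promoters of tested genes. A match of letters is a description and does not show that a factor binds.

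Promoters of 4 genes are shown 5′ to 3′ on the strand of the gene, with matches of CACGTG and of CCGGAA (on either strand) in capitals. Gnl3 and Ncl are shown because they were among the genes with the smallest p-values below and hold neither motif. Nop2 and Tsr1 are shown as genes higher in ACSS2NLS without overlap that hold both.
Gnl3, chr14:31019082-31019381, minus strand: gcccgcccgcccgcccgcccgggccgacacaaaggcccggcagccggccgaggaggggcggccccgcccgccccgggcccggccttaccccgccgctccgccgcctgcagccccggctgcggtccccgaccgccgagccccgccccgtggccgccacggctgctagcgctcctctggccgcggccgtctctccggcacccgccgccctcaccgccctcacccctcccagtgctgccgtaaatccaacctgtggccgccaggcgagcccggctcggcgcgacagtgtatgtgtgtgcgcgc
Ncl, chr1:86359406-86359705, minus strand: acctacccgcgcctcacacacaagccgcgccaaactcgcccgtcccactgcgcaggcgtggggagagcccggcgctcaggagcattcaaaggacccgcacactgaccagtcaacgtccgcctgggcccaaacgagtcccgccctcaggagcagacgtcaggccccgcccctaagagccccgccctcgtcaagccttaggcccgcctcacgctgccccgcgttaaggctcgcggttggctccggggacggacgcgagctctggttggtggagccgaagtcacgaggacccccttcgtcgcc
Nop2, chr6:125131633-125131932, plus strand: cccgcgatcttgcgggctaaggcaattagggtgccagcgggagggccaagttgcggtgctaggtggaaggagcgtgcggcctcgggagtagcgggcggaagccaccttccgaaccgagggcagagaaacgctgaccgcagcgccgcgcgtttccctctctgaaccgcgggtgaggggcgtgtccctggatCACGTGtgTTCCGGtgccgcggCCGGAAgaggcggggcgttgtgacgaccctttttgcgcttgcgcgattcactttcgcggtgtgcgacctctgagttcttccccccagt
Tsr1, chr11:74897830-74898129, plus strand: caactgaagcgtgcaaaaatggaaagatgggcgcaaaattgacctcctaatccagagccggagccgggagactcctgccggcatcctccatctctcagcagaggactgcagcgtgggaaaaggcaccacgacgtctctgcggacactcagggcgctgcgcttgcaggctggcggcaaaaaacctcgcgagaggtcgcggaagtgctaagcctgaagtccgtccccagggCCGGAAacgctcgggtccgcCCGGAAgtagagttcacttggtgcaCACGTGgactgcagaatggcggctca
In Nop2 the E-box began 60 bases before the start, and in Tsr1 it lay within the transcribed part, 24 bases past the start.

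The data came from libraries of similar depth. The FPKM steps of the table gave total tags of 48800000 and 48300000 in ACSS2NLS replicates 1 and 2 and 46000000 and 49300000 in EV replicates 1 and 2, to the nearest 100000. A member of the list was covered by 152 (Npm3, EV replicate 1) to 27742 tags (Ncl, ACSS2NLS replicate 1) in a library, and the relative counting error of the value with fewest tags was 8.11%. Acss2 was at 80.7 and 86.3 FPKM in ACSS2NLS and 3.66 and 3.92 FPKM in EV, which matches the labels. The 8 CD8 T cell markers, Cd8a and Cd3e among them, were all above 0 in every library and summed to 2070 and 1630 FPKM in ACSS2NLS and 2220 and 1840 FPKM in EV. Of the 8, 6 had a lower mean in ACSS2NLS, 3 of them without overlap (37.5%, against 18.1% of all genes). The other 2 had a higher mean, 1 of them without overlap (12.5%, against 19.3% of all genes). Transcripts of other cells were present and unequal. The 9 melanoma markers summed to 11.2 and 139 FPKM in ACSS2NLS and 5.5 and 38.6 FPKM in EV, so replicate 2 was the higher in each group. The 12 myeloid markers summed to 140 and 609 FPKM in ACSS2NLS and 45.8 and 339 FPKM in EV, again higher in replicate 2 of each group. Both lists also averaged higher in ACSS2NLS. A higher mean was found for 6 of 6 melanoma markers tested (median log2 change 1.15) and 10 of 11 myeloid markers tested (0.87). These medians rested on single libraries. Without ACSS2NLS replicate 2 they were -0.23 for melanoma and -0.01 for myeloid markers, and without EV replicate 1 they were 0.29 and -0.21. Without ACSS2NLS replicate 1 they were 2.64 and 1.77, and without EV replicate 2 they were 1.95 and 1.94. In these lists 0 genes were higher without overlap, and 1 myeloid gene was lower without overlap. For both sums EV replicate 1 was the lowest library and ACSS2NLS replicate 2 the highest. The 6 markers of stroma and endothelium summed to 16.9 and 15.6 FPKM in ACSS2NLS and 8.61 and 13.4 FPKM in EV, so they were higher in ACSS2NLS, as were the members. Of the 3 that reached 1 FPKM, all had a higher mean in ACSS2NLS, as did 53.2% of all genes. Of these 3, 2 were higher without overlap (66.7%, against 19.3% of all genes). The 5 B cell markers were low, at 2.97 and 3.15 FPKM in ACSS2NLS and 1.58 and 2.38 FPKM in EV. The only one tested, Cd79b, was higher without overlap, as were 19.3% of all genes. The 4 NK cell markers, which include the gene Nkg7 that CD8 T cells also express, summed to 1600 and 1160 FPKM in ACSS2NLS and 1750 and 1290 FPKM in EV. Proliferating melanoma cells and macrophages also make ribosomes, and the part of these cells in the values below was not tested. In bulk RNA, a different share of a cell type and a different amount of RNA per cell cannot be told apart.

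Ribosome biogenesis genes were on the whole slightly higher in ACSS2NLS, but no single gene passed the test. Of the 39, 36 had a higher mean in ACSS2NLS on the log2(FPKM + 1) scale (92.3%), where 53.2% of all genes tested did. In 17 genes both ACSS2NLS libraries lay above both EV libraries (43.6%, against 19.3% of all genes), and in 0 both lay below (against 18.1% of all genes). The median log2 change, ACSS2NLS minus EV, was 0.15, beside 0.02 for all 9810 genes, and single genes ranged between -0.08 and 0.48. In limma-trend with Benjamini-Hochberg adjustment over all 9810 genes, 0 of the 39 passed an adjusted p of 0.05 in either direction. Over all genes, 0.0204% passed upward and 0% downward. At an unadjusted p under 0.05, 2 members were higher, Gnl3 and Npm1, and 0 lower, against 3.1% higher and 2.87% lower of all genes. The members were chosen with earlier results of these data known, so the counts are a description.

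The size of this difference rested on the libraries used. Without EV replicate 1 the median log2 change of the members was 0.07, without EV replicate 2 it was 0.25, without ACSS2NLS replicate 1 it was 0.18 and without ACSS2NLS replicate 2 it was 0.09. Between 28 and 37 of the 39 had a higher mean in these fits. The direction was upward in all 4 fits for 23 genes, and it turned in at least 1 fit for the other 16.

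**Figure D1:**
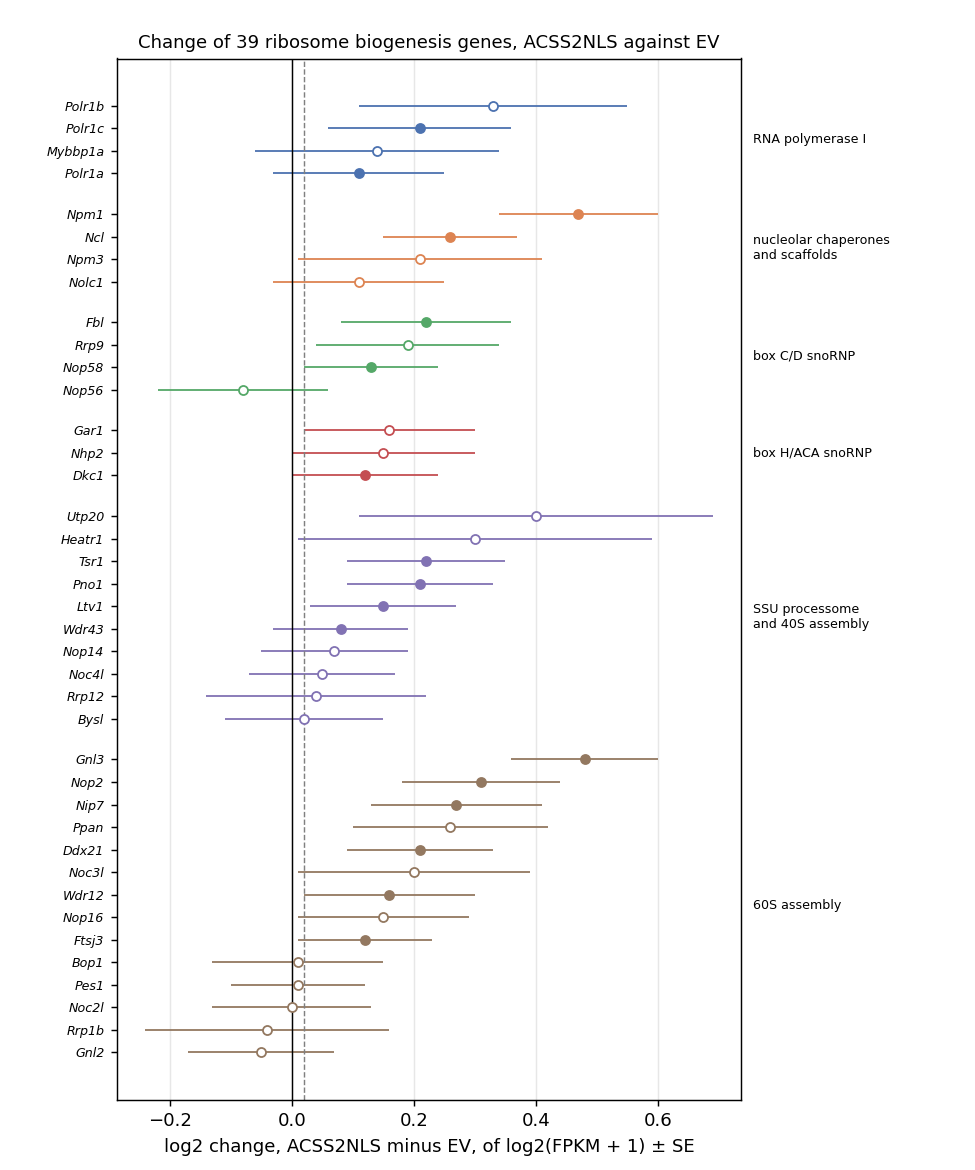
Log2 change (ACSS2NLS minus EV, on the log2(FPKM + 1) scale) of each of the 39 genes with its standard error from limma-trend, n = 2 libraries per group, by role of the protein. Filled points mark the 17 genes whose ACSS2NLS libraries both lie above both EV libraries, open points the genes whose libraries overlap, and the dashed line the median of all 9810 genes (0.02). Gnl3 (0.48) and Npm1 (0.47) stand farthest to the right, and Nop56 (-0.08) farthest to the left.

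**Figure D2:**
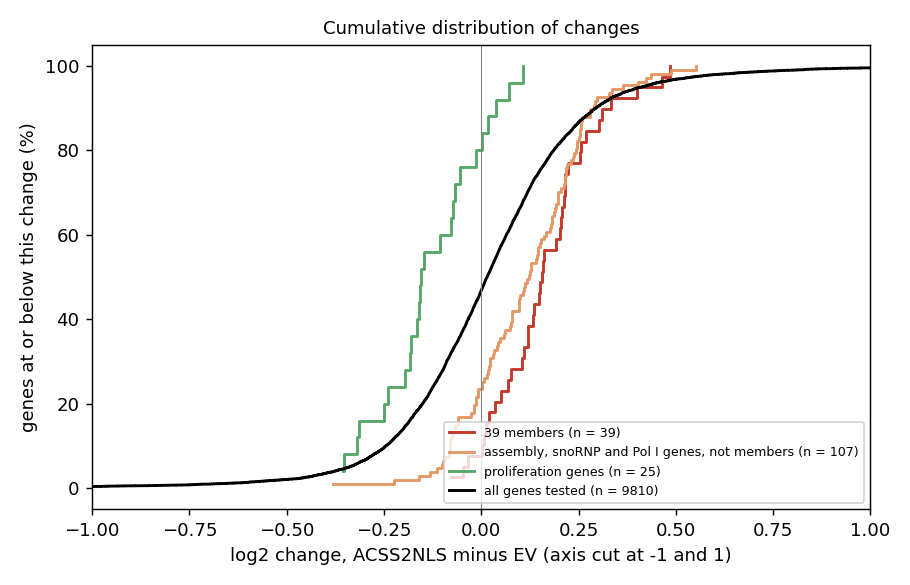
Cumulative share of genes (vertical axis, %) at or below each log2 change (horizontal axis, ACSS2NLS minus EV, shown between -1 and 1) for the 39 members, 107 other genes of ribosome assembly, snoRNA particles and polymerase I, 25 proliferation genes and all 9810 genes. The curve of the members lies to the right of that of all genes over most of its range, and that of the proliferation genes lies to the left.

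Among the nucleolar chaperones and scaffolds, all 4 genes had a higher mean in ACSS2NLS, with a median log2 change of 0.24. Npm1 encodes nucleophosmin, a histone and ribosomal protein chaperone that shapes the granular part of the nucleolus (mm10 chromosome 11, 33152498 to 33163206, minus strand). Npm1 was at 77.9 and 73.4 FPKM in ACSS2NLS, against 50.6 and 58.6 FPKM in EV. The groups did not overlap, and the mean was 1.38-fold higher (log2 change 0.47 ± 0.13, SE, n = 2 per group; limma adjusted p = 0.81). Processed copies of Npm1 are known in the mouse genome, so its reads may be shared with them. Ncl encodes nucleolin, an RNA-binding protein that accompanies the precursor from transcription on (chromosome 1, 86344719 to 86359455, minus strand). Ncl was at 69 and 66 FPKM in ACSS2NLS, against 54.5 and 58.2 FPKM in EV. Here too every ACSS2NLS library exceeded every EV library, by 1.2-fold in the mean (log2 change 0.26 ± 0.11, limma adjusted p = 0.81). Npm3, a nucleoplasmin relative that binds nucleophosmin, was low, at 4.06 and 6.07 FPKM in ACSS2NLS and 3.88 and 4.45 FPKM in EV, and its groups overlapped (log2 change 0.21 ± 0.20, limma adjusted p = 0.866). Nolc1, the scaffold Nopp140 that brings snoRNA particles into the nucleolus, was at 30.7 and 32.6 FPKM in ACSS2NLS and 26.3 and 32.6 FPKM in EV. Only EV replicate 1 stood apart in Nolc1, and without that library its log2 change was -0.04.

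Members of the RNA polymerase I group had a higher mean in 4 of 4 cases, with a median log2 change of 0.18. Polr1b encodes the second largest subunit of the enzyme. It was at 7.77 and 10.5 FPKM in ACSS2NLS, against 5.82 and 8.34 FPKM in EV (log2 change 0.33 ± 0.22, limma adjusted p = 0.825), so ACSS2NLS replicate 1 lay between the EV libraries. Polr1c, a subunit that polymerases I and III share, was at 13.4 and 13.9 FPKM in ACSS2NLS and 13 and 10.4 FPKM in EV (0.21 ± 0.15, limma adjusted p = 0.826). Its groups did not overlap, but EV replicate 1 was close to the ACSS2NLS libraries. Polr1a, the largest subunit with the catalytic centre, was at 4.43 and 4.2 FPKM in ACSS2NLS and 3.81 and 4.08 FPKM in EV, a log2 change of 0.11 ± 0.14 (limma adjusted p = 0.901). Mybbp1a, a nucleolar protein that binds polymerase I and MYB, was at 33.5 and 45.1 FPKM in ACSS2NLS and 30.5 and 40.8 FPKM in EV. In Mybbp1a the libraries divided by replicate number, not by group: both replicate 2 libraries were above both replicate 1 libraries.

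Of the 4 genes for proteins of box C/D particles, 3 had a higher and 1 a lower mean in ACSS2NLS. Fibrillarin, encoded by Fbl, is the methyltransferase of these particles, while Nop56 and Nop58 encode its paired scaffold proteins. Fbl was at 6.16 and 5.57 FPKM in ACSS2NLS, against 4.72 and 5.04 FPKM in EV, without overlap (log2 change 0.22 ± 0.14, limma adjusted p = 0.822). Nop58 was at 46.5 and 42.9 FPKM in ACSS2NLS, against 42 and 39.4 FPKM in EV, also without overlap (0.13 ± 0.11, limma adjusted p = 0.85). Nop56 had the highest mean of the 39 genes over the 4 libraries, narrowly above Npm1, while within ACSS2NLS the means of Npm1, Ncl and Nhp2 were higher. Nop56 had a lower mean in ACSS2NLS, at 68.9 and 58.2 FPKM, against 71.3 and 62.7 FPKM in EV (log2 change -0.08 ± 0.14, limma adjusted p = 0.93), with overlapping groups. Rrp9, the protein that marks the U3 particle of the SSU processome, was at 20.6 and 23.8 FPKM in ACSS2NLS and 17.3 and 21.4 FPKM in EV (0.19 ± 0.15, limma adjusted p = 0.839). Per length, Nop56 exceeded Fbl 11.2-fold and 10.5-fold in the ACSS2NLS libraries, against 15.1-fold and 12.5-fold in the EV libraries. The ratio of Nop56 to Nop58 was 1.48 and 1.36 in ACSS2NLS, against 1.7 and 1.59 in EV. Both ratios were thus lower in every ACSS2NLS library than in every EV library, and neither was tested. Among the other partner ratios computed, those of Nop58 to Fbl, Bop1 and Pes1 to Wdr12, and Noc2l to Noc3l separated in the same way. The ratios of Bop1 to Pes1, Noc4l to Nop14, Nhp2 to Gar1 and Dkc1, Polr1b and Polr1c to Polr1a, and Npm1 to Npm3 overlapped.

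In box H/ACA particles, all 3 members had a higher mean in ACSS2NLS, with a median log2 change of 0.15. Dkc1 encodes dyskerin, the pseudouridine synthase, which also belongs to telomerase. It was at 22.8 and 23.7 FPKM in ACSS2NLS and 20.1 and 22.5 FPKM in EV, a narrow separation (log2 change 0.12 ± 0.12, limma adjusted p = 0.866). Gar1, which helps release the modified RNA, was at 16.1 and 17.2 FPKM in ACSS2NLS and 13.3 and 16.5 FPKM in EV (0.16 ± 0.14, limma adjusted p = 0.859). Nhp2, a core protein of the particle, was at 73.9 and 58.1 FPKM in ACSS2NLS and 57.2 and 60.7 FPKM in EV (0.15 ± 0.15, limma adjusted p = 0.868). ACSS2NLS replicate 1 alone was high for Nhp2, and without it the log2 change was -0.02. The fourth core protein, Nop10, is not a member of the 39. It was at 94.1 and 77.8 FPKM in ACSS2NLS and 57.2 and 70.7 FPKM in EV, without overlap (0.42 ± 0.16, limma adjusted p = 0.81).

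All 10 genes of the SSU processome and of 40S assembly had a higher mean in ACSS2NLS, with a median log2 change of 0.12, and in 4 of them (40%) every ACSS2NLS library lay above every EV library, against 19.3% of all genes. Pno1 acts in the last steps of the small subunit, in the cytoplasm as well as the nucleolus. It was at 23.5 and 20.8 FPKM in ACSS2NLS, against 19.5 and 18.5 FPKM in EV (log2 change 0.21 ± 0.12, limma adjusted p = 0.821). Tsr1, a factor of late 40S maturation, was at 12.9 and 15.2 FPKM in ACSS2NLS, against 11.6 and 12.3 FPKM in EV (0.22 ± 0.13, limma adjusted p = 0.822). In GENCODE M21, 1159 exon bases of Tsr1 are shared with Srr on the other strand, so some of its reads may belong to Srr. Utp20, a very large scaffold protein, had the largest log2 change of this group, at 2.62 and 4.63 FPKM in ACSS2NLS and 1.84 and 3.12 FPKM in EV (0.40 ± 0.29, limma adjusted p = 0.835). Its standard error and that of Heatr1 were the widest of the 39 genes, 0.29 each.

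The same group held Ltv1, Wdr43, Heatr1, Nop14, Noc4l, Rrp12 and Bysl. Ltv1, needed for export of the 40S precursor, was at 23 and 21.9 FPKM in ACSS2NLS and 18.7 and 21.5 FPKM in EV, and Wdr43, a processome protein, at 29.5 and 30.2 FPKM in ACSS2NLS and 27.7 and 28.8 FPKM in EV. In both genes the ACSS2NLS libraries were the higher, by a narrow margin. Heatr1, the counterpart of yeast Utp10, was at 7.84 and 14.1 FPKM in ACSS2NLS and 7.17 and 9.7 FPKM in EV. ACSS2NLS replicate 2 was above the other 3 libraries, and without it the log2 change of Heatr1 was -0.08. Nop14 and Noc4l, which bind each other in the processome, had log2 changes of 0.07 ± 0.12 and 0.05 ± 0.12. Their FPKM ratio, Noc4l over Nop14, was 2.27 and 2.29 in ACSS2NLS and 2.28 and 2.35 in EV, nearly constant over the libraries. Rrp12, an export factor, and Bysl, which encodes bystin and shares 361 exon bases with Ccnd3 on the other strand, had log2 changes of 0.04 ± 0.18 and 0.02 ± 0.13. None of these genes passed the test.

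In 60S assembly 12 of 14 genes averaged higher in ACSS2NLS (85.7%, against 53.2% of all genes), with a median log2 change of 0.16. In 6 of them (42.9%, against 19.3% of all genes) the groups did not overlap. Gnl3 had the largest log2 change of all 39 (mm10 chromosome 14, 31012433 to 31019131, minus strand). It encodes nucleostemin, a GTP-binding nucleolar protein of proliferating and stem cells. Gnl3 was at 22.1 and 23.2 FPKM in ACSS2NLS, against 15 and 16.9 FPKM in EV. The ACSS2NLS libraries were close together and well above EV, 1.42-fold in the mean (log2 change 0.48 ± 0.12, limma adjusted p = 0.81). In the fits without 1 library its log2 change was between 0.41 and 0.56, and its exons share 15 bases with Pbrm1 on the other strand. Nop2, which encodes an RNA methyltransferase that marks dividing cells, was at 23.5 and 26.7 FPKM in ACSS2NLS, against 18.8 and 21.3 FPKM in EV (1.25-fold; 0.31 ± 0.13, limma adjusted p = 0.81). Nip7, a 60S assembly factor in yeast, was at 9.28 and 10.4 FPKM in ACSS2NLS, against 7.43 and 8.6 FPKM in EV (0.27 ± 0.14, limma adjusted p = 0.81). Gnl3, Nop2 and Nip7 each had every ACSS2NLS library above every EV library.

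The further 60S genes without overlap were Ddx21, Ftsj3 and Wdr12. The RNA helicase Ddx21 was at 16.9 and 17.1 FPKM in ACSS2NLS, against 13.7 and 15.7 FPKM in EV (log2 change 0.21 ± 0.12). The methyltransferase Ftsj3 was at 29 and 30.2 FPKM in ACSS2NLS, against 25.9 and 28.4 FPKM in EV (0.12 ± 0.11). Wdr12 forms the PeBoW complex of large subunit assembly with Pes1 and Bop1, and it alone of the 3 was separated by group. Wdr12 was at 4.62 and 4.66 FPKM in ACSS2NLS, against 3.93 and 4.15 FPKM in EV (0.16 ± 0.14). Pes1 was nearly constant, at 15.8 and 16.3 FPKM in ACSS2NLS and 15.9 and 16.1 FPKM in EV (0.01 ± 0.11). Bop1 was at 29.6 and 32.9 FPKM in ACSS2NLS and 28.2 and 33.8 FPKM in EV (0.01 ± 0.14). Per length, Pes1 exceeded Wdr12 3.43-fold and 3.51-fold in ACSS2NLS and 4.04-fold and 3.89-fold in EV.

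The last 6 genes of 60S assembly had overlapping groups. Ppan, the homologue of fly Peter Pan, was at 23.6 and 27.5 FPKM in ACSS2NLS and 18.6 and 24.2 FPKM in EV (log2 change 0.26 ± 0.16). Noc3l and Noc2l, which pair with each other, differed widely in level: Noc3l was at 3.25 and 4.66 FPKM in ACSS2NLS and 3.06 and 3.47 FPKM in EV, and Noc2l at 48.8 and 56.5 FPKM in ACSS2NLS and 49.4 and 55.6 FPKM in EV. Noc2l, which also encodes an inhibitor of histone acetyltransferases, shares 598 exon bases with Samd11 on the other strand in GENCODE M21. Nop16 had a log2 change of 0.15 ± 0.14, Rrp1b one of -0.04 ± 0.20 and Gnl2, a GTP-binding relative of Gnl3, one of -0.05 ± 0.12. With Nop56, Rrp1b and Gnl2 were the 3 members with a lower mean in ACSS2NLS, and the direction of each turned without 1 library.

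**Figure D3:**
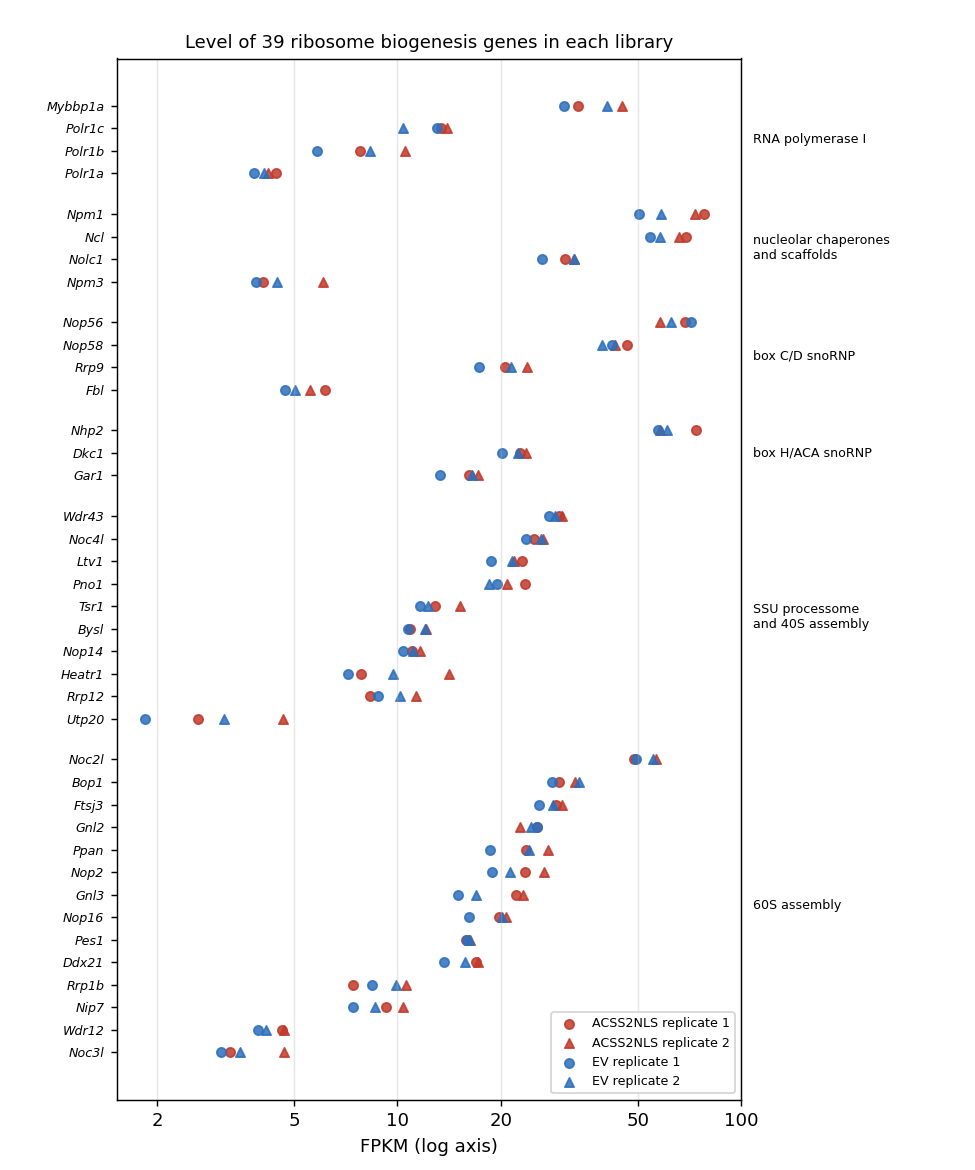
FPKM (log axis) of the 39 genes in each of the 4 libraries, ordered by role and level. Circles are replicate 1 and triangles replicate 2. Levels run between a mean of 3.05 FPKM (Utp20) and 65.3 FPKM (Nop56), and in Utp20, Heatr1 and Mybbp1a the libraries divide more by replicate number than by group.

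Levels differed more between the genes than between the groups. The mean over the 4 libraries was between 3.05 FPKM for Utp20 and 65.3 FPKM for Nop56, with a median of 19.3 FPKM, beside 7.43 FPKM for all genes tested. Above 50 FPKM were Nop56, Nhp2, Npm1, Ncl and Noc2l, and under 5 FPKM were Polr1a, Npm3, Utp20, Noc3l and Wdr12. FPKM depends on the transcript counted. For Nop58 and Wdr12 the deposited exon lengths, 1959 and 2822 bases, were 0.206 and 0.282 of the longest coding transcript in GENCODE M21, and for Ncl the deposited length of 8241 bases was close to the 8202 bases there. Of the members, 8 host snoRNA genes inside their own gene, on the same strand, 23 in all. Nop56 holds 5, Nop58 holds 4, Gnl3, Ncl and Wdr43 hold 3 each, Ppan and Tsr1 hold 2 each and Dkc1 holds 1. Of these 8 hosts, Nop58, Gnl3, Ncl, Wdr43, Tsr1 and Dkc1 were higher in ACSS2NLS without overlap, while Nop56 and Ppan overlapped. All genes separated in this way in 19.3% of cases and the 39 members in 43.6%.

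The libraries held a second pattern, a difference between replicates 1 and 2 within each group. EV replicate 1 was the lowest library in 30 of the 39 genes, against 27.2% of all genes tested, and ACSS2NLS replicate 2 was the highest in 28, against 33.7% of all genes. The summed level of the members was 929 and 954 FPKM in ACSS2NLS and 804 and 882 FPKM in EV. In 28 of the 39 genes (71.8%) replicate 2 was above replicate 1 in both groups, against 34.9% of all genes. The melanoma and myeloid markers had the same order within each group, as given above, and the same lowest and highest libraries. Averaged over both groups, the difference was largest in Utp20 and Heatr1. For Utp20 replicate 2 minus replicate 1 was 0.64 in ACSS2NLS and 0.54 in EV on the log2(FPKM + 1) scale, and for Heatr1 it was 0.77 in ACSS2NLS and 0.39 in EV. For Polr1b it was 0.39 in ACSS2NLS and 0.46 in EV. Exon length was set beside these differences. Across the 39 genes, Pearson's r with the log2 exon length was 0.46 in ACSS2NLS and 0.34 in EV, while across all 9810 genes it was 0.24 in ACSS2NLS and -0.03 in EV. The log2 change between groups had an r of -0.01 with exon length across the 39 genes. Genes of 1 library share their depth and preparation and are not independent, so these r are descriptions.

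**Figure D4:**
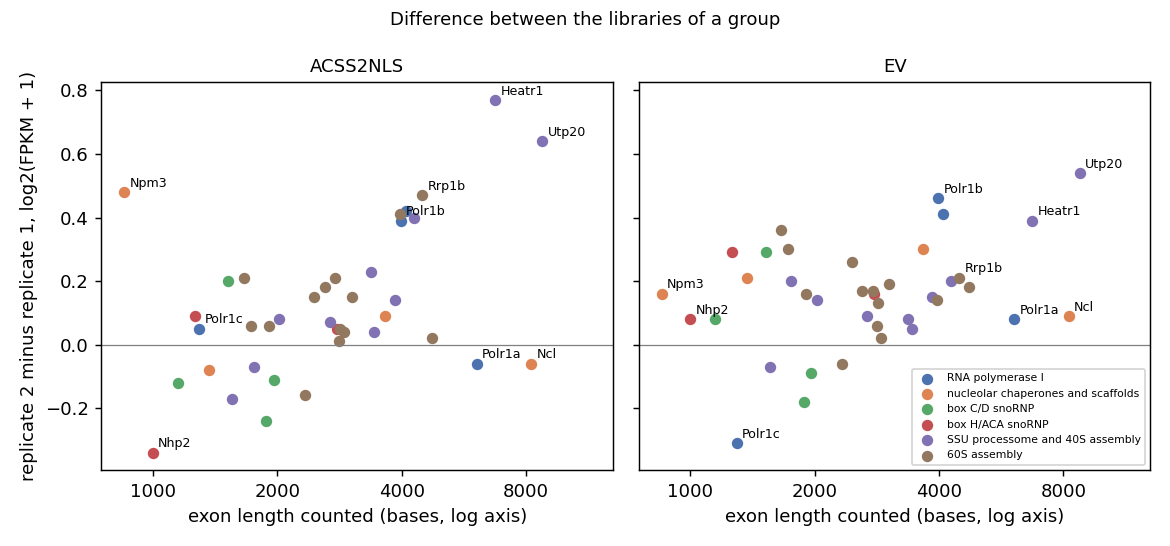
Replicate 2 minus replicate 1 of each of the 39 genes on the log2(FPKM + 1) scale (vertical axis) by the exon length counted in bases (log axis), in ACSS2NLS (left) and EV (right), coloured by role. Utp20 and Heatr1 lie high in both panels, while Ncl, the second longest, lies near 0.

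Genes of the same pathway outside the list of 39 were also higher in ACSS2NLS on balance, in the same libraries. Their lists too were chosen with earlier results of these data known, so the counts are a description. Of 107 tested genes of ribosome assembly, snoRNA particles and polymerase I that are not members, 82 averaged higher in ACSS2NLS (76.6%, against 53.2% of all genes). Of the 107, 46 were higher without overlap (43%, against 19.3% of all genes), and 7 were lower without overlap (6.54%, against 18.1%). Their median log2 change was 0.12, and 0 passed limma-trend over all genes tested. An unadjusted limma p under 0.05 was reached by 5 with a higher and 1 with a lower mean. Over all genes, 3.1% reached it with a higher and 2.87% with a lower mean. In the 60S list (32 of 44 with a higher mean), Rpf2, which brings the 5S particle to the large subunit, was at 16 and 14.6 FPKM in ACSS2NLS, against 9.81 and 10.4 FPKM in EV (log2 change 0.55 ± 0.12, limma adjusted p = 0.775). Nol8 was at 5.45 and 5.96 FPKM in ACSS2NLS, against 4 and 3.57 FPKM in EV (0.49 ± 0.14, limma adjusted p = 0.81). In the SSU and 40S list (35 of 42 with a higher mean), the processome gene Utp18 was at 17.8 and 18.9 FPKM in ACSS2NLS, against 13.3 and 14 FPKM in EV (0.40 ± 0.11, limma adjusted p = 0.81). The kinase gene Riok1 ran the other way, at 18.2 and 14.8 FPKM in ACSS2NLS, against 21 and 22.4 FPKM in EV (-0.38 ± 0.14, limma adjusted p = 0.81).

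The remaining lists of the pathway were of mixed direction. Of 12 further polymerase I genes, 9 averaged higher in ACSS2NLS, 7 of them without overlap (58.3%, against 19.3% of all genes). Among these was Taf1a, a subunit of the promoter selectivity factor, with 2.97 and 3.32 FPKM in ACSS2NLS and 2.3 and 1.84 FPKM in EV (log2 change 0.44 ± 0.17). Of 9 further snoRNA particle genes, 6 had a higher mean, Ruvbl2 among them (0.29 ± 0.12), a helicase that helps assemble box C/D particles. The RNA exosome, which trims ribosomal RNA precursors, had 8 of 13 with a higher mean and a median of 0.04, the nearest to that of all genes. Of 12 snoRNA host genes that encode no protein, 8 had a higher mean and 2 were higher without overlap (16.7%), and Gas5 was at 38.8 and 29.5 FPKM in ACSS2NLS and 30.2 and 27.5 FPKM in EV. None of the genes of these lists passed the test.

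The MYC network was set beside these genes because MYC is known to drive them. Of its 10 genes, 7 averaged higher in ACSS2NLS, with a median log2 change of 0.17. Without EV replicate 1 this median was -0.03, and without EV replicate 2 it was 0.25. It was 0.16 without ACSS2NLS replicate 1 and 0.10 without ACSS2NLS replicate 2. Among the 10, 3 were higher without overlap (30%, against 19.3% of all genes) and 2 lower (20%, against 18.1%). Myc itself was at 65.6 and 55.9 FPKM in ACSS2NLS and 41.7 and 63.2 FPKM in EV (log2 change 0.23 ± 0.22, limma adjusted p = 0.864), and without EV replicate 1, where it was lowest, its log2 change was -0.06. Max, the partner of MYC, was at 16.8 and 26.3 FPKM in ACSS2NLS and 12.8 and 17.6 FPKM in EV (0.46 ± 0.25, limma adjusted p = 0.81). Mlx, a relative of MAX, was at 18.8 and 17.7 FPKM in ACSS2NLS, against 15.1 and 15 FPKM in EV, without overlap (0.26 ± 0.11, limma adjusted p = 0.81). Mxd1, which opposes MYC, was at 6.55 and 7.54 FPKM in ACSS2NLS, against 15.1 and 14.1 FPKM in EV, well separated (-0.96 ± 0.13, limma adjusted p = 0.616). In Max, ACSS2NLS replicate 2 was highest and EV replicate 1 lowest, the libraries that held those places in most of the 39 genes.

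Cytosolic ribosomal proteins and cell division genes differed from the 39 assembly genes as a whole in their order of libraries. Of 20 ribosomal protein genes, the mean was higher in ACSS2NLS for 19, and 16 were higher without overlap (80%, against 19.3% of all genes). Their mean level relative to the 4 libraries was 0.23 and 0.03 in ACSS2NLS and -0.14 and -0.13 in EV. ACSS2NLS replicate 1 was thus the highest library there. For the 39 assembly genes it was replicate 2 (mean relative levels of 0.02 and 0.14 in ACSS2NLS and -0.16 and -0.00 in EV). Within the pathway this order varied. ACSS2NLS replicate 1 was also the highest for the box C/D members (0.09, against 0.02 in replicate 2) and the box H/ACA members (0.11 against 0.04). The same held for the polymerase I genes outside the 39 (0.12 against 0.04). For the other roles of the 39 and the other assembly and snoRNA particle lists it was replicate 2. Of 25 proliferation genes, 20 averaged lower in ACSS2NLS, 12 of them without overlap (48%, against 18.1% of all genes). The mitotic genes Ccnb2 and Top2a had log2 changes of -0.35 ± 0.11 and -0.35 ± 0.14 (limma adjusted p = 0.81 for each). EV replicate 1, the lowest library for the ribosome biogenesis genes, was the highest for the proliferation genes, at 0.13.

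**Figure D5:**
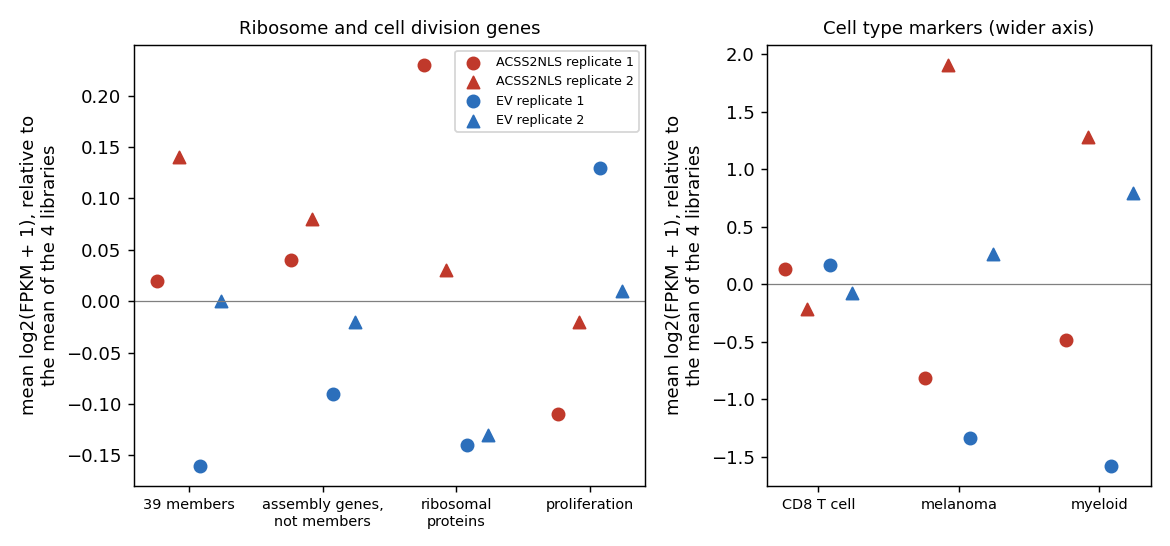
Mean log2(FPKM + 1) of gene lists in each library, relative to the mean of the 4 libraries, with ACSS2NLS in red and EV in blue. Left, the 39 members, other assembly genes, ribosomal proteins and proliferation genes, where EV replicate 1 is lowest for the members and highest for proliferation. Right, on a wider axis, markers of CD8 T cells, melanoma and myeloid cells, where replicate 2 of each group is the higher for melanoma and myeloid markers.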

How the data were processed

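RNA of CD8+ T cells was measured in 2 ACSS2NLS and 2 EV libraries. The labels' protocols name the RNeasy Plus Micro kit for RNA and SMART-Seq v4 Ultra Low Input for libraries. The submitters' processing notes list the mm10 build, HOMER and STAR 2.5.3a. Per the file headers, the authors counted tags on the sense strand over exons of RefSeq genes, condensed to 1 transcript a gene, and deposited them as FPKM. The sources used here do not say whether strand was kept. In GENCODE M21, 15 of the 39 members (38.5%) share exon bases with a gene on the other strand. The part of such genes in the values was not tested. The header names 8 tag directories, and the table's 4 library columns, named Acss2WT and Acss2OE with replicate numbers, were read as EV and ACSS2NLS.

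The 9810 genes that averaged 1 FPKM or more were put on the log2(FPKM + 1) scale and compared with limma-trend (limma 3.58.1, R 4.3.3), two-sided, Benjamini-Hochberg adjusted over all genes, threshold 0.05. No count test was used. The table holds FPKM, and the tags estimated from it served only for depth, coverage and counting noise. A log2 change on this scale understates the change of low genes. Total tags were estimated from the FPKM steps: multiplied by exon length, 100% of low values (up to 50 tags, genes of 500 to 2000 bases) were whole multiples within 0.1 of a step. Replicates differed by more than counting noise (chi-square per degree of freedom 60.7 in ACSS2NLS and 40.2 in EV). The fit was also run on simulated data, with independent libraries and changes larger than those of the members. That run does not show how the fit performs on changes of the members' size. The smallest p of an exact permutation test of 2 against 2 samples is 0.333.

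Nothing says that libraries came from separate mice, so the spread behind the p-values may be technical only. The members, the gene lists and the roles were chosen with earlier results of these data known. Named were all members, up to 3 genes of each pathway list with the smallest p, Acss2 and Myc. Alternatives were pseudocounts of 0.5 and 0.1, no filter, a mean of at least 5 FPKM, quantile normalization, median centring, a replicate block and leaving out each library.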

Additional observations from a re-analysis of the deposited data

How the results depend on the processing

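The upward median of the 39 genes kept its direction in every alternative run, at 0.07 to 0.25 when 1 library was left out (0.07 without EV replicate 1 and 0.25 without EV replicate 2). Leaving out 1 library gave 28 to 37 members with a higher mean, 0 members called in either direction, 2 genes of all called higher and 0 to 9 called lower (9 without EV replicate 1). With no filter on low values 1 gene of all was called higher, where a larger number of genes was tested. Fits without 1 library assume that the lone library of a group varies like the other group. The direction turned for 16 members when 1 library was left out, with log2 changes of Mybbp1a between -0.07 and 0.34, Npm3 between -0.03 and 0.45, Nolc1 between -0.04 and 0.26, Nop56 between -0.20 and 0.04, Nhp2 between -0.02 and 0.32, Noc4l between -0.02 and 0.12, Heatr1 between -0.08 and 0.69, Rrp12 between -0.17 and 0.24, Bysl between -0.06 and 0.10, Nop16 between -0.0018 and 0.30, Noc2l between -0.10 and 0.11, Noc3l between -0.0045 and 0.41, Bop1 between -0.11 and 0.14, Pes1 between -0.01 and 0.03, Rrp1b between -0.27 and 0.20 and Gnl2 between -0.13 and 0.04. Outside the members it turned for Cd3g between -0.44 and 0.09, Dct between -0.68 and 2.90, Lyz2 between -0.21 and 2.66, Myc between -0.06 and 0.53 and Nkg7 between -0.38 and 0.09. Under median centring, which lowers every log2 change by the same amount, 4 members near 0 turned: Bysl to -0.01, Noc2l to -0.03, Bop1 to -0.02 and Pes1 to -0.02. The pseudocounts, the filters and quantile normalization turned 0 members among those they tested.

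The labels give both groups replicate numbers 1 and 2 but do not say that they pair the samples. With the replicate block, which leaves a single residual degree of freedom, 229 of the 9810 genes were called higher and 172 lower. Among them were 2 of the 39 members, both higher, Gnl3 (limma adjusted p = 0.0315) and Npm1 (limma adjusted p = 0.0351). Counted in both directions, the share of members called was close to that of all genes. Of the other genes chosen by the rule, the block also brought under the threshold Mxd1 (limma adjusted p = 0.000199), Rpf2 (0.0205), Max (0.0467), Rps23 (0.0184), Rpl14 (0.0469), Dct (0.000941) and Lyz2 (3.86e-05). Across genes, the deviations of same-numbered libraries from their group means had a correlation of 0.58. Depth limits the low members most, with a counting error of up to 8.11% for Npm3.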
